A study of Homo sapiens with 12 samples.

Results

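ITM2C and the amyloid precursor family were followed by RNA-seq in CWR22Rv1 cells, an established human prostate cancer cell line, with and without ectopic MEIS1 and with and without targeting of HOXB13. The set was named as 9 genes: ITM2C, ITM2B and ITM2A of the integral membrane protein 2 family, the precursors APP, APLP1 and APLP2, the beta-secretases BACE1 and BACE2, and the sorting receptor SORL1. They were found by gene symbol in the 4 tables of expression values, which listed 13951 different genes. Of the 9 genes, 8 were listed and all 8 averaged 1 CPM or more (CPM, the deposited unit, is a read count scaled to the size of its library), while ITM2A was not among the listed genes and was not analysed here. ITM2C had been picked for its high level in the libraries labelled HOXB13ko, and APLP1 for opposite moves with MEIS1 and with the HOXB13ko label, so the values of ITM2C and APLP1 in those comparisons are given as a description without a test.

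The 12 libraries fell into 4 groups of 3 replicates, all made from RNA of cells cultured for 48 hours. Control cells carried Cas9 and no guide RNA. LV-MEIS1 cells carried MEIS1 in a lentiviral vector (pReceiver-LV105), and whether they also carried Cas9 is not given in the sources used here. HOXB13ko cells were CWR22Rv1-Cas9 cells that received a guide against the N-terminal part of HOXB13, and 6 clonal lines were combined into a single pool. HOXB13ko-LV-MEIS1 cells were that pool with lentiviral MEIS1. Each genotype is thus a single line or pool, and the labels do not say that replicates came from separate cultures, so the p-values below measure only the spread between these samples, which may be technical.

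The amyloid precursor protein APP and its relatives APLP1 and APLP2 are single-pass membrane proteins that are cut in turn by sheddases or beta-secretases outside the membrane and by gamma-secretase within it, and the APP fragment left by BACE1 and gamma-secretase is amyloid-beta. Unlike APP, the APLP proteins hold no amyloid-beta sequence. ITM2B (BRI2) and ITM2C (BRI3) are membrane proteins with a BRICHOS domain that are processed by furin-like proteases, and both bind APP and lower its cleavage to amyloid-beta in cell models. BACE1 is the main beta-secretase of neurons, BACE2 is its close homologue in peripheral tissues, and SORL1 is a sorting receptor that steers APP between the Golgi and endosomes. These genes are best known from the brain, and many of them are also transcribed in epithelia.

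ITM2C lies on chromosome 2 (chr2:230864639-230879248, plus strand, GRCh38 with GENCODE 44 gene limits), ITM2B on chromosome 13 (chr13:48232612-48270357, plus strand) and APLP1 on chromosome 19 (chr19:35867899-35879792, plus strand). APP and BACE2 are both on chromosome 21 (chr21:25880535-26171128, minus strand, and chr21:41167801-41282530, plus strand). APLP2, BACE1 and SORL1 are on chromosome 11 (chr11:130068147-130144811, plus strand, chr11:117285232-117316259, minus strand, and chr11:121452314-121633763, plus strand). Exons of APP, APLP1 and BACE1 overlap exons of other genes on the opposite strand (APP-DT, NPHS1, and RNF214 with BACE1-AS), and since strand was not used in counting, reads from such an overlap cannot be told apart.

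The promoters of ITM2C, which had the highest fold change of the set, and of APLP1 and APLP2, which shared an order of levels over the 4 groups, are shown so that the sequence at the start of these genes can be read beside their values. Each runs from 250 bases before to 50 bases after the gene start in RefSeq (GRCh38.p14), and capitals mark a match to TGACAG, a core motif of MEIS proteins, on either strand. RefSeq gave 3 start windows for ITM2C, and the window shown overlaps another almost entirely.
ITM2C, chr2:230864692-230864991, plus strand: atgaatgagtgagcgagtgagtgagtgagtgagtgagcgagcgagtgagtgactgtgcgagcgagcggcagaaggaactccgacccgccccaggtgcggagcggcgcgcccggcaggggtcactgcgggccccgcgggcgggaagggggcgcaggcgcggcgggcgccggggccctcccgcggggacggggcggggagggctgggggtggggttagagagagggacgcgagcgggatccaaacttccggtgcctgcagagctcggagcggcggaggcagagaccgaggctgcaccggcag
APLP1, chr19:35868324-35868623, plus strand: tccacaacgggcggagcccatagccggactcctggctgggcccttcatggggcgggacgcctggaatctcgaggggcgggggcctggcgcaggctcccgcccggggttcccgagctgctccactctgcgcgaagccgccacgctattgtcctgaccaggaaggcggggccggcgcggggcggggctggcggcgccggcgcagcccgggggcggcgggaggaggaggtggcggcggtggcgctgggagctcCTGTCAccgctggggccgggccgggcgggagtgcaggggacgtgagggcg
APLP2, chr11:130070318-130070617, plus strand: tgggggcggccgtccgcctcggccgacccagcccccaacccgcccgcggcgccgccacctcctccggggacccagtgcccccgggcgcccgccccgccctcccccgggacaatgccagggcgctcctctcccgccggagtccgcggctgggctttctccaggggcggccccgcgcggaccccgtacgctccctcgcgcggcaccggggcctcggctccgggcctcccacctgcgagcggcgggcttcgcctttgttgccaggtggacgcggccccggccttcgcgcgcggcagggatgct

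The GC content of these windows was 73.3% for ITM2C, 77.7% for APLP1 and 80.7% for APLP2, against a median of 58.7% over all 35116 RefSeq promoter windows. They held 36, 36 and 44 CpG dinucleotides, against a median of 14. On both strands, TGACAG matched the APLP1 window once, at the gene start and on the opposite strand, and did not occur in the printed ITM2C and APLP2 windows. Of all promoter windows, 15.8% held TGACAG. The first of 3 BACE1 windows held TGACAG 2 times, at positions -196 and -14 from the gene start. TGATTGA, a second MEIS motif found in 2.07% of windows, and the HOXB13 motifs CAATAAA (4.0%) and TCGTAAA (0.541%) matched no window of the set. Promoter windows of ITM2B and BACE2 were not analysed here. Such matches are a description of letters, not binding sites.

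Expression was measured as CPM, the reads assigned to a gene scaled to the library size after the authors' library normalization. The CPM of the listed genes summed to between 940564 and 992328 per library, and the steps between low CPM values corresponded to about 17200000 to 28700000 assigned reads, so 3 reads amounted to 0.105 to 0.174 CPM. Every listed gene of the set was far above this. Pairs of libraries correlated at r = 0.990 to 0.995 across genes within a group. MEIS1 was at 4.05 to 4.45 CPM in Control, 45.8 to 49.6 in LV-MEIS1, 3.42 to 3.65 in HOXB13ko and 29.3 to 30.1 in HOXB13ko-LV-MEIS1. HOXB13 mRNA was not lower with the HOXB13ko label. It was at 185 to 215 CPM in Control and 150 to 152 in LV-MEIS1. In the libraries labelled HOXB13ko and HOXB13ko-LV-MEIS1 it was higher, at 307 to 347 and 326 to 375 CPM. In the study, the clones were checked for loss of HOXB13 protein by western blot, which was not analysed here. The groups are called by their labels. All 8 luminal prostate markers were listed, while basal (KRT5, KRT14 and TP63), endothelial and leukocyte markers were not. The summed CPM of luminal markers was 2361 to 2401 in LV-MEIS1 and 3204 to 3446 in the other 9 libraries. Of 5 fibroblast markers COL1A2, COL3A1 and PDGFRA were not listed, and the other 2 went opposite ways: COL1A1 was at 30.0 to 34.6 CPM in LV-MEIS1 and 13.6 to 19.5 in the other libraries, and PDGFRB at 0.187 to 0.333 in LV-MEIS1 and 0.988 to 2.12 in the others. Of neuroendocrine markers, CHGA was not listed. SYP was at 14.4 to 17.0 CPM in Control, 1.24 to 2.14 in LV-MEIS1, 3.68 to 4.25 in HOXB13ko and 3.51 to 4.35 in HOXB13ko-LV-MEIS1. CHGB was at 6.29 to 7.58, 0.268 to 0.397, 1.03 to 1.29 and 0.694 to 1.36 CPM in the same order, and ENO2, which many cell types use, at 182 to 195, 160 to 169, 163 to 174 and 167 to 178. The part of these marker levels in the results below was not tested. In bulk RNA, fewer cells with a transcript and less of it per cell cannot be told apart.

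Differences were tested over all 13951 genes in a single fit of the 12 libraries (limma on log2(CPM + 0.5)), against a change of 1.5-fold (limma treat) and against no change (limma eBayes), each at a Benjamini-Hochberg adjusted p under 0.05. Below, a gene "passed 1.5-fold" by the first test and "differed from no change" by the second. Fold changes are on the log2(CPM + 0.5) scale with their standard error, and they slightly understate the change of genes with low CPM.

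**Figure D1:**
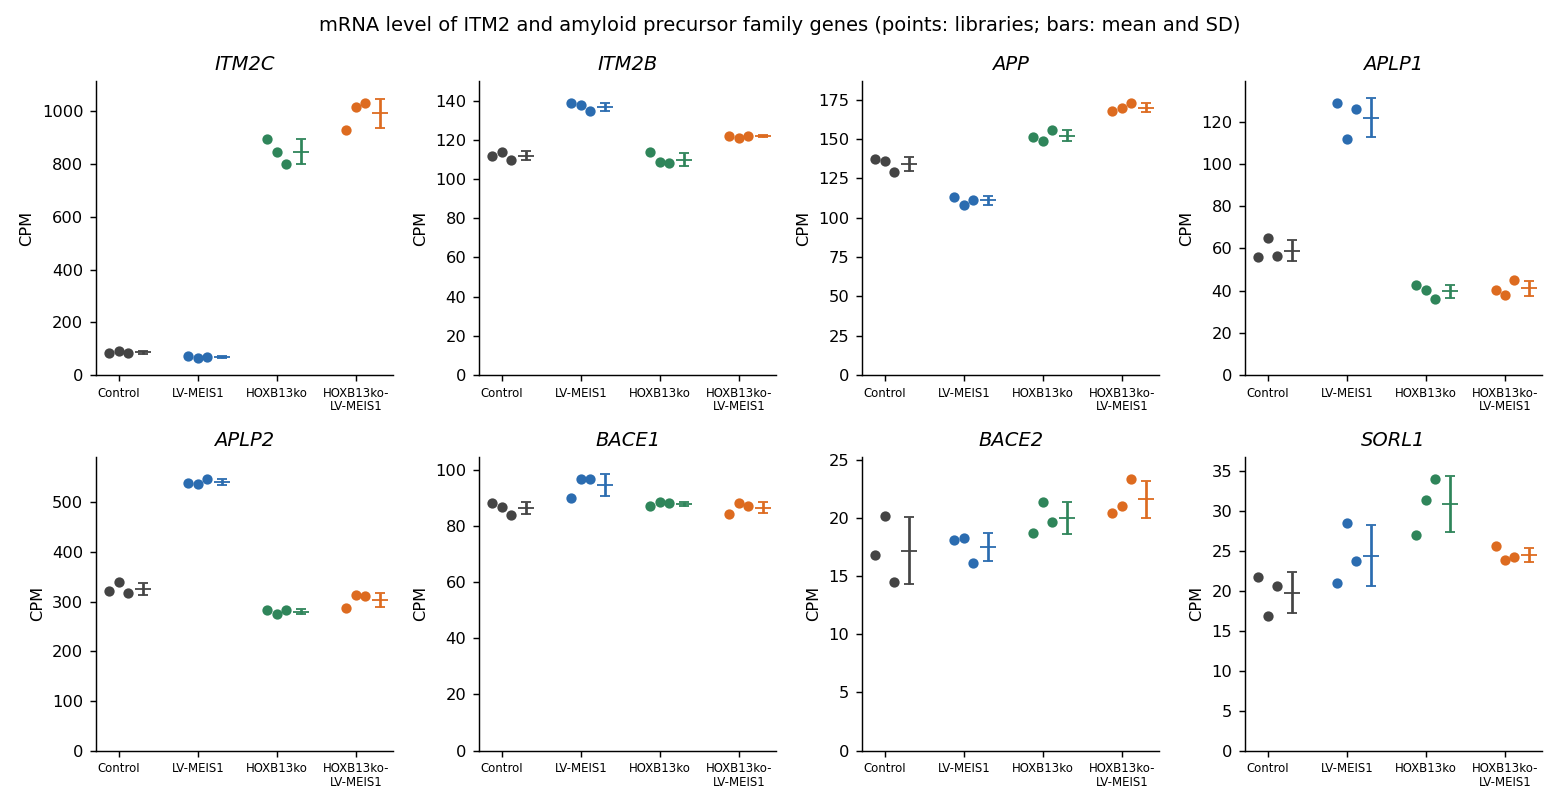
CPM of the 8 listed genes in each of the 12 libraries, by group (points, 1 per library) with the group mean and SD beside them (bars), each panel on its own linear axis from 0. ITM2C sits at 800 to 1033 CPM in the libraries labelled HOXB13ko and HOXB13ko-LV-MEIS1 and at 64.5 to 92.6 in the other 6, and APLP1 and APLP2 are highest in LV-MEIS1.

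ITM2C was the gene of the set with the widest range. It was at 84.1, 92.6 and 81.3 CPM in Control, at 70.6, 64.5 and 69.0 in LV-MEIS1, at 896, 846 and 800 in HOXB13ko and at 930, 1017 and 1033 in HOXB13ko-LV-MEIS1. No group overlapped another, and the order was HOXB13ko-LV-MEIS1, HOXB13ko, Control and LV-MEIS1, with a ratio of 14.60 between the highest and the lowest mean. The means were 86.0 ± 5.85 CPM in Control and 847 ± 48.1 in HOXB13ko (SD, n = 3), a difference of 3.29 ± 0.06 on the log2 scale, which is what the gene was picked for.

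The choice also counted the difference between the MEIS1 effects without and with the HOXB13ko label, which takes in the libraries of HOXB13ko-LV-MEIS1 and LV-MEIS1. HOXB13ko-LV-MEIS1 is also the same pool of clones with MEIS1 added, and not separately derived knockout cells. The comparison of HOXB13ko-LV-MEIS1 with LV-MEIS1 is therefore given without a test. In it ITM2C rose from 68.0 ± 3.17 to 993 ± 55.5 CPM (SD, n = 3), a log2 fold change of 3.86 ± 0.06. This value describes the libraries and is not read as support for the choice. In the comparisons with lentiviral MEIS1, which share libraries with the choice and are given without a test, ITM2C was lower by 0.33 on the log2 scale (-0.33 ± 0.06) in LV-MEIS1 than in Control and higher by 0.23 ± 0.06 in HOXB13ko-LV-MEIS1 than in HOXB13ko.

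ITM2B, the family member in which mutations cause familial British and Danish dementia, had a ratio of 1.24 between its highest and lowest group mean. It was at 112, 114 and 110 CPM in Control, 139, 138 and 135 in LV-MEIS1, 114, 109 and 108 in HOXB13ko and 122, 121 and 122 in HOXB13ko-LV-MEIS1. The LV-MEIS1 libraries were the highest, and Control and HOXB13ko overlapped. ITM2B differed from no change between LV-MEIS1 and Control (0.29 ± 0.04, limma eBayes adjusted p = 7.6e-05) and between HOXB13ko-LV-MEIS1 and LV-MEIS1 (-0.17 ± 0.04, eBayes adjusted p = 0.004), and it passed 1.5-fold in no comparison. In HOXB13ko against Control its log2 difference was -0.02 ± 0.04, with a 95% interval of -0.11 to 0.07. In that comparison the 2 listed ITM2 genes were thus far apart, ITM2C at 847 CPM and ITM2B at 110 CPM in HOXB13ko from 86.0 and 112 in Control.

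APLP1, the family member with expression mostly in neurons, was at 55.9, 64.7 and 56.2 CPM in Control, 129, 112 and 126 in LV-MEIS1, 42.4, 40.1 and 36.2 in HOXB13ko and 40.1, 37.8 and 45.1 in HOXB13ko-LV-MEIS1. The LV-MEIS1 libraries were above all others, Control came next, and the lines labelled HOXB13ko overlapped each other below Control. The neuroendocrine markers SYP and CHGB were highest in Control and lowest in LV-MEIS1, and their part in the values of APLP1 was not tested. The values it was picked for were a log2 difference of 1.05 ± 0.08 in LV-MEIS1 against Control and of -0.57 ± 0.08 in HOXB13ko against Control. With lentiviral MEIS1 in the HOXB13ko-labelled pool it differed by 0.05 ± 0.08, and between the lines with MEIS1 by -1.57 ± 0.08, both from libraries that shared in the choice and therefore without a test.

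APLP2, the widely expressed relative, was not used in the choice and had the same order of groups as APLP1. It was at 321, 339 and 317 CPM in Control, 539, 536 and 548 in LV-MEIS1, 283, 275 and 283 in HOXB13ko and 288, 314 and 311 in HOXB13ko-LV-MEIS1. No group overlapped its neighbour in this order, and the highest mean was 1.93 times the lowest. Against Control, APLP2 was higher in LV-MEIS1 by 0.73 ± 0.05 on the log2 scale (95% interval 0.63 to 0.83). This differed from no change (limma eBayes adjusted p = 1.6e-08) and did not pass 1.5-fold (treat adjusted p = 0.0816), although it did after rescaling to an equal CPM sum or after quantile normalization. HOXB13ko-LV-MEIS1 against LV-MEIS1 gave a decrease of APLP2 that passed 1.5-fold (-0.83 ± 0.05, treat adjusted p = 0.0013). HOXB13ko against Control gave a smaller one (-0.22 ± 0.05), which differed from no change (eBayes adjusted p = 0.0032).

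APP took the order of ITM2C, and no groups overlapped: it was at 137, 136 and 129 CPM in Control, 113, 108 and 111 in LV-MEIS1, 151, 149 and 156 in HOXB13ko and 168, 170 and 173 in HOXB13ko-LV-MEIS1. The highest group mean was 1.54 times the lowest. APP fell in LV-MEIS1 against Control (-0.27 ± 0.04, limma eBayes adjusted p = 0.00019) and rose in HOXB13ko against Control (0.18 ± 0.04, eBayes adjusted p = 0.0069). The largest of its differences, 0.62 ± 0.04 in HOXB13ko-LV-MEIS1 against LV-MEIS1, differed from no change (eBayes adjusted p = 3.4e-08), and its 95% interval of 0.52 to 0.71 spans the 1.5-fold bound, which it did not pass (treat adjusted p = 1). Of the precursors without a part in the choice, APLP2 was highest in LV-MEIS1, where APP was lowest. APLP1 was also highest there, which is part of what it was picked for.

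The beta-secretases varied little. BACE1 was at 88.2, 86.8 and 83.9 CPM in Control, 89.9, 96.8 and 96.5 in LV-MEIS1, 86.9, 88.3 and 88.2 in HOXB13ko and 84.1, 88.0 and 86.9 in HOXB13ko-LV-MEIS1, and the highest group mean was 1.09 times the lowest. LV-MEIS1 was just above the other groups without overlap. Its difference from Control of 0.13 ± 0.05 (limma eBayes adjusted p = 0.0384) and that between HOXB13ko-LV-MEIS1 and LV-MEIS1 of -0.13 ± 0.05 (eBayes adjusted p = 0.0357) were lost when either of the LV-MEIS1 replicates 2 and 3 was left out, with adjusted p = 0.113 to 0.132 without them, and also under several other settings. BACE1 in HOXB13ko differed from Control by 0.03 ± 0.05, with a 95% interval of -0.08 to 0.13.

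BACE2 was at 16.8, 20.2 and 14.5 CPM in Control, 18.1, 18.3 and 16.1 in LV-MEIS1, 18.7, 21.4 and 19.7 in HOXB13ko and 20.4, 21.0 and 23.4 in HOXB13ko-LV-MEIS1. The Control replicates spanned most of the range of this gene, and Control overlapped LV-MEIS1 and HOXB13ko. Its difference of 0.30 ± 0.11 between HOXB13ko-LV-MEIS1 and LV-MEIS1 differed from no change (limma eBayes adjusted p = 0.0308), but not when replicate 3 of either group was left out (adjusted p = 0.118 each). HOXB13ko against Control gave 0.22 ± 0.11 (eBayes adjusted p = 0.12), which became 0.34 with adjusted p = 0.0231 when Control replicate 2 was left out.

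SORL1 was at 21.8, 16.9 and 20.6 CPM in Control, 21.0, 28.5 and 23.8 in LV-MEIS1, 27.0, 31.4 and 34.1 in HOXB13ko and 25.6, 23.9 and 24.2 in HOXB13ko-LV-MEIS1. HOXB13ko had the highest mean and did not overlap Control or HOXB13ko-LV-MEIS1, while the LV-MEIS1 libraries overlapped all other groups. SORL1 rose in HOXB13ko against Control by 0.63 ± 0.12 (limma eBayes adjusted p = 0.0011, 95% interval 0.38 to 0.88), and this did not pass 1.5-fold. Between the lines with MEIS1, HOXB13ko-LV-MEIS1 against LV-MEIS1, SORL1 did not differ from no change (0.02 ± 0.12, 95% interval -0.23 to 0.27, eBayes adjusted p = 0.912). In LV-MEIS1 against Control the difference was 0.30 ± 0.12 (eBayes adjusted p = 0.052), and the adjusted p fell below 0.05 when Control replicate 1 or LV-MEIS1 replicate 1 was left out (adjusted p = 0.0304 and 0.0179), or HOXB13ko replicate 1 or 3, which enter only the shared spread (0.042 and 0.0485).

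**Figure D2:**
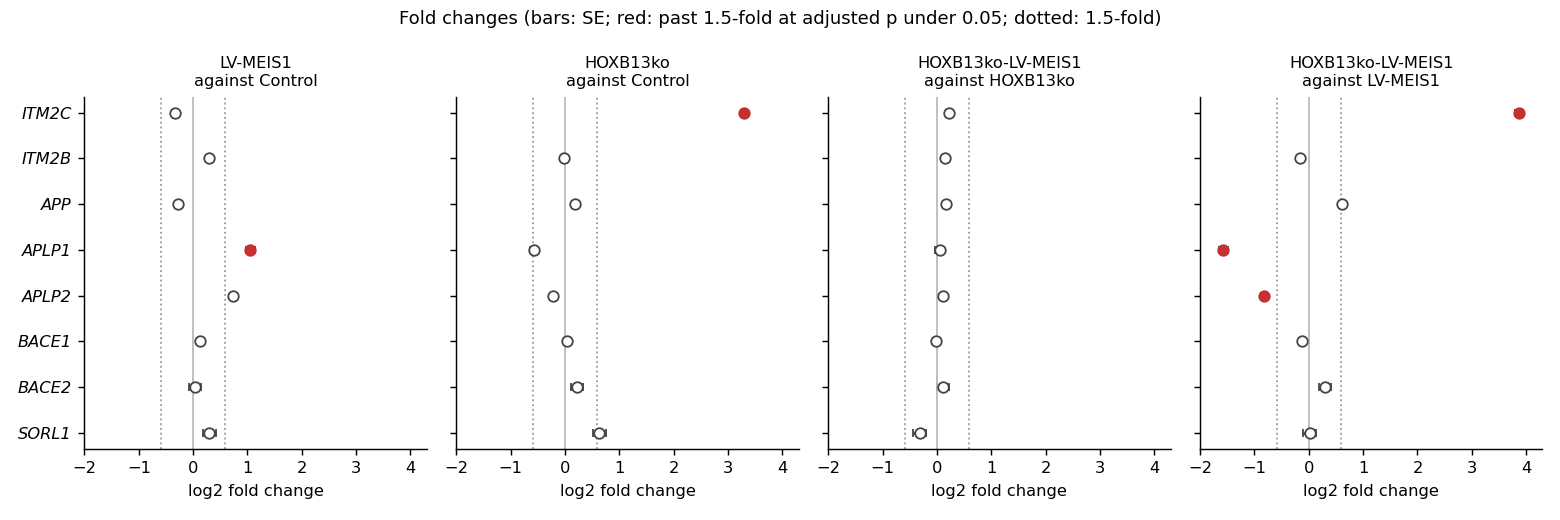
Log2 fold change of the 8 listed genes in the 4 comparisons between groups, with standard errors, the 1.5-fold bounds as dotted lines and genes that passed 1.5-fold in red. The red marks of ITM2C and APLP1 fall on values that took part in their choice or share libraries with it, and are not read as tests. ITM2C is far to the right in both comparisons of a HOXB13ko-labelled line (3.29 and 3.86), and APLP1 changes side between LV-MEIS1 against Control (1.05) and the comparisons of HOXB13ko-labelled lines (-0.57 and -1.57).

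Counted by comparison, 1 of the 8 genes passed 1.5-fold in LV-MEIS1 against Control, beside 3.99% of all genes tested, and this was APLP1, which was picked on it, so nothing is read from the count. None of the 6 genes that had no part in the choice did, and at an unadjusted treat p under 0.05 APLP2 alone of the 6 did, against 6.49% of all genes. From no change, 4 of these 6 differed (ITM2B, APLP2 and BACE1 higher, APP lower), against 44.5% of all genes. HOXB13ko against Control gave 1 gene of 8, ITM2C, which was picked on it, against 1.41% of all genes. None of the other 6 passed 1.5-fold, also at an unadjusted treat p under 0.05 (2.71% of all genes), and 3 of the other 6 differed from no change (APP and SORL1 higher, APLP2 lower), against 32.9%. HOXB13ko-LV-MEIS1 against LV-MEIS1 gave 1 of the 6 genes without a part in the choice, APLP2, which was lower, against 6.71% of all genes, and 5 of the 6 differed from no change, against 50.1%. These 5 include the BACE1 and BACE2 calls that were lost without single libraries.

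HOXB13ko-LV-MEIS1 against HOXB13ko gave 0 of 8 genes by either test after adjustment, against 0.00717% of all genes past 1.5-fold and 0.0502% that differed from no change. At an unadjusted p under 0.05, 0 of the 6 genes without a part in the choice passed 1.5-fold, against 0.0645% of all genes, and 4 of 6 differed from no change, against 14.8%. These 4 were ITM2B, APP and APLP2, which were higher, and SORL1, which was lower. In each the libraries of the groups did not overlap, against 21.1% of all genes without overlap. The sizes were small, from 0.12 ± 0.05 for APLP2 to -0.32 ± 0.12 for SORL1, and the 95% interval of APLP2 was 0.02 to 0.22.

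Whether lentiviral MEIS1 had the same effect with and without the HOXB13ko label was tested as the difference of the MEIS1 effects, the log2 fold change of LV-MEIS1 against Control minus that of HOXB13ko-LV-MEIS1 against HOXB13ko. Of the 6 genes without a part in the choice, 0 passed 1.5-fold, against 2.93% of all genes, and 0 did so at an unadjusted treat p under 0.05, against 6.16%. Of the same 6 genes, 3 differed from no change, against 34.2%. APLP2 rose by 0.73 in the first and was 0.12 higher in the second, a difference of 0.61 ± 0.07 (limma eBayes adjusted p = 9.2e-06). APP fell in the first, at -0.27, and was 0.16 higher in the second, a difference of -0.44 ± 0.06 (eBayes adjusted p = 0.00013). SORL1 was 0.30 higher in the first and -0.32 in the second, a difference of 0.61 ± 0.16 (eBayes adjusted p = 0.011). For ITM2B (0.15 ± 0.06, eBayes adjusted p = 0.0696), BACE1 (0.15 ± 0.07, 0.0896) and BACE2 (-0.07 ± 0.15, 0.73) it did not differ from no change. Under some other settings it did. For ITM2B these were an equal CPM sum (eBayes adjusted p = 0.0295) and quantile normalization (0.0154). For BACE1 they were an equal CPM sum (0.0449) and leaving out LV-MEIS1 replicate 1 (0.047). ITM2C and APLP1 had differences of -0.56 ± 0.09 and 1.00 ± 0.12, given without a test.

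Levels between genes were set side by side as CPM per kilobase of transcript, with the length of the canonical transcript. In HOXB13ko, ITM2C was first of the 8 genes at 416 ± 23.6 CPM per kilobase and APLP2 second at 75.8 ± 1.18 (SD, n = 3), and in HOXB13ko-LV-MEIS1 the values were 488 ± 27.2 and 82.3 ± 3.88. In LV-MEIS1 APLP2 was first at 146 ± 1.62, and ITM2C held the third place at 33.4 ± 1.55. With the median length of the protein-coding transcripts in place of the canonical length, ITM2C kept the first place in both HOXB13ko-labelled lines and the third in LV-MEIS1, while its place in Control moved from second to first. The places of ITM2B depend on the length used, since its canonical transcript has 10089 bases and the median of its protein-coding transcripts 1114.

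The genes whose pattern over the 12 libraries was most like that of ITM2C were P2RY1 (Pearson r = 0.994), SLC3A2 (0.994), SEMA6D (0.991), AVPR1A (0.990) and SGK2 (0.989), taken from 750 genes that averaged 5 CPM or more and whose highest and lowest group means were at least 1 log2 unit apart. SLC3A2, the heavy chain of several amino acid transporters, had group means of 81.6 CPM in Control, 57.7 in LV-MEIS1, 310 in HOXB13ko and 317 in HOXB13ko-LV-MEIS1. P2RY1, a purinergic receptor, had 11.9, 11, 45.9 and 48.9 CPM in the same order, and AVPR1A, a vasopressin receptor, 38.4, 36.0, 74.2 and 73.1. SEMA6D, a semaphorin, was at 3.11, 2.26, 16.6 and 16.6 CPM and SGK2, a serine/threonine kinase, at 7.94, 6.57, 18.6 and 17.7. All 5 were at their highest in the HOXB13ko-labelled lines, by smaller ratios than ITM2C. The points share library and group, so r describes the group pattern and carries no test.

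The genes most like APLP1 by the same measure were IGSF8 (r = 0.993), GSTM4 (0.993), ERBB2 (0.992), FCGRT (0.992) and KIF26A (0.990). ERBB2, a receptor tyrosine kinase, had group means of 56.2 CPM in Control, 113 in LV-MEIS1, 40.6 in HOXB13ko and 41.5 in HOXB13ko-LV-MEIS1, close to the 58.9, 122, 39.6 and 41.0 CPM of APLP1. FCGRT, the neonatal Fc receptor, had the widest ratio, with 6.04, 21.6, 2.47 and 2.58 CPM. IGSF8, an immunoglobulin superfamily membrane protein, was at 38.8, 64.7, 30.7 and 31.6 CPM, GSTM4, a glutathione transferase, at 29.5, 52.8, 21.7 and 22.6, and KIF26A, a kinesin family member, at 4.5, 10.8, 2.46 and 2.38.

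**Figure D3:**
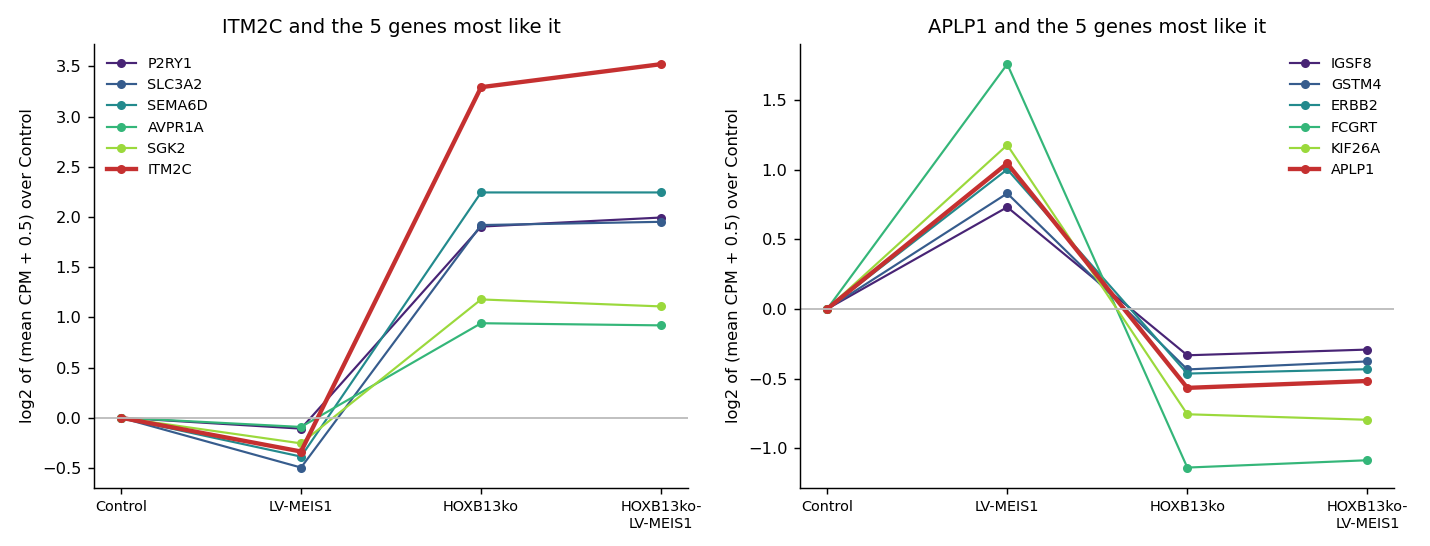
Group means of ITM2C and APLP1 (red) and of the 5 genes most like each (other colours), as log2 of the mean CPM + 0.5 over the Control mean, across the 4 groups. In both HOXB13ko-labelled groups ITM2C (3.29 in HOXB13ko) lies above P2RY1, SLC3A2, SEMA6D, AVPR1A and SGK2, while APLP1 lies between FCGRT and IGSF8.

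The listed genes whose start lay within 1 Mb of the ITM2C start were looked at after the values of ITM2C were known. There were 16. In HOXB13ko against Control none of them passed 1.5-fold, against 1.41% of all genes. At an unadjusted limma treat p under 0.05 it was also 0, against 2.71%. By the test against no change 6 of the 16 differed, against 32.9% of all genes. The median log2 fold change of the 16 was 0.03, and they ran from -0.26 to 0.67 against 3.29 for ITM2C. The highest of them was SPATA3-AS1, whose start is 131 kb from that of ITM2C, and CAB39, the nearest on the other side at -152 kb, was at 0.23. In HOXB13ko-LV-MEIS1 against LV-MEIS1, 2 of the 16 passed 1.5-fold, SPATA3-AS1 (1.10) and SLC16A14 (3.11), against 6.71% of all genes, and the median was 0.03. SLC16A14, a monocarboxylate transporter family member at -796 kb, was at -2.56 in LV-MEIS1 against Control and at 0.27 in HOXB13ko against Control. Around APLP1, 51 genes were listed within 1 Mb. In LV-MEIS1 against Control none of the 51 passed 1.5-fold, against 3.99% of all genes. At an unadjusted limma treat p under 0.05 it was 1, against 6.49%. Their median was 0.05 and their highest value 1.05. In HOXB13ko against Control 1 of the 51 passed 1.5-fold, against 1.41% of all genes. It was HSPB6, a small heat shock protein gene whose start is 110 kb from that of APLP1 (-2.49, limma treat adjusted p = 1.6e-07). In HOXB13ko-LV-MEIS1 against LV-MEIS1 2 of the 51 passed it, HSPB6 (-3.18) and DMKN (-1.54), against 6.71% of all genes. The median of the 51 was -0.23 there.

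**Figure D4:**
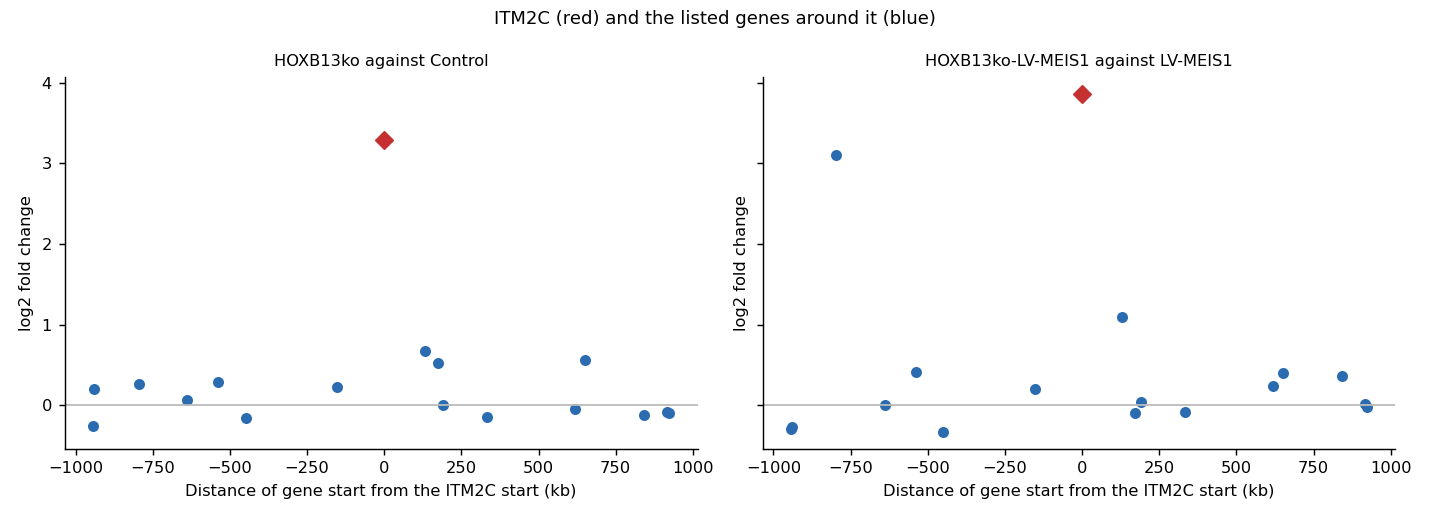
Log2 fold change of ITM2C (red diamond) and of the 16 listed genes within 1 Mb (blue), by the distance of their gene start from that of ITM2C in kb, in HOXB13ko against Control (left) and HOXB13ko-LV-MEIS1 against LV-MEIS1 (right). On the left the neighbours lie between -0.26 and 0.67, and on the right SLC16A14 (3.11) and SPATA3-AS1 (1.10) are also high.

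The rest of amyloid precursor processing was described by 45 genes in 5 lists, of which 41 were listed (without APBA1, SORCS1, SORCS2 and SORCS3). In LV-MEIS1 against Control, 1 rose past 1.5-fold and 1 fell, beside 3.99% of all genes, and 22 differed from no change, 12 higher and 10 lower, beside 44.5%. The median log2 fold change was 0.07, beside 0.01 over all genes. In HOXB13ko against Control 0 rose and 1 fell past 1.5-fold, beside 1.41% of all genes, 4 were higher and 7 lower by the test against no change, beside 32.9%, and the median was 0.02, beside -0.0017 over all genes. In HOXB13ko-LV-MEIS1 against HOXB13ko 0 of the 41 passed either limma test, while 9 differed from no change at an unadjusted eBayes p under 0.05, beside 14.8% of all genes, and 0 passed 1.5-fold at an unadjusted treat p, with a median of 0.02 beside 0.01. Between the lines with lentiviral MEIS1, 2 rose and 2 fell past 1.5-fold, beside 6.71% of all genes, and 26 differed from no change, 11 higher and 15 lower, beside 50.1%, with a median of -0.12 beside -0.02 over all genes.

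All genes that passed 1.5-fold were in the list of amyloid-beta binding, uptake and breakdown, of which all 9 were listed. LRP1, an endocytic receptor for APOE and amyloid-beta complexes, was at 15.4, 16.0 and 15.8 CPM in Control and 31.8, 51.4 and 47.1 in LV-MEIS1, a rise of 1.41 ± 0.13 (limma treat adjusted p = 0.00036), and at 17.1 to 19.1 in HOXB13ko and 12.4 to 13.1 in HOXB13ko-LV-MEIS1. Its difference of the MEIS1 effects was 1.87 ± 0.18 and passed 1.5-fold (treat adjusted p = 0.00021). LRP8, another receptor for APOE, moved the other way, from 53.9 to 61.1 CPM in Control to 26.3 to 27.8 in LV-MEIS1 (-1.09 ± 0.07, treat adjusted p = 7e-05). It was at 70.9 to 77.5 CPM in HOXB13ko and 61.0 to 70.5 in HOXB13ko-LV-MEIS1.

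CLU, the chaperone clusterin, fell from 358, 401 and 379 CPM in Control to 221, 201 and 192 in HOXB13ko (-0.89 ± 0.07, limma treat adjusted p = 0.023). That call was lost when Control replicate 2 or 3 or HOXB13ko replicate 2 or 3 was left out (adjusted p = 0.0861 to 0.14), while the log2 fold change stayed at -0.85 or below. In HOXB13ko-LV-MEIS1 against LV-MEIS1, LRP8 (1.25 ± 0.07, treat adjusted p = 2.2e-06) and MME, the amyloid-beta degrading protease neprilysin (1.25 ± 0.07, treat adjusted p = 5.9e-06), rose past 1.5-fold, and LRP1 fell (-1.69 ± 0.13, treat adjusted p = 1.1e-05). APOE fell by 1.22 there (treat adjusted p = 0.0272), from 7.65 to 9.19 CPM to 2.86 to 3.91, and lost the call without LV-MEIS1 replicate 1 or 3 or HOXB13ko-LV-MEIS1 replicate 1 or 2 (adjusted p = 0.0628 to 0.134) and after quantile normalization (-1.08, adjusted p = 0.12).

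The proteases that cut the set showed smaller differences. Of 6 gamma-secretase genes, APH1B was higher (0.87 ± 0.15) and PSEN2, a catalytic subunit, lower (-0.47 ± 0.07) in LV-MEIS1 against Control, each different from no change by limma eBayes (adjusted p = 0.0003 and 0.00013), and the median was 0.04. These were 2 of 6 genes, beside 44.5% of all genes. In HOXB13ko-LV-MEIS1 against LV-MEIS1 all 6 differed from no change, 3 higher and 3 lower, beside 50.1% of all genes. There APH1B was at -0.70 ± 0.15 and PSEN2 at 0.34 ± 0.07. Of 8 shedding and intramembrane proteases, FURIN, which trims the ITM2 proteins, was lower in LV-MEIS1 (-0.75 ± 0.09, eBayes adjusted p = 1.9e-05) and in HOXB13ko (-0.50 ± 0.09, eBayes adjusted p = 0.0013) than in Control. ADAM10, the main alpha-secretase, was higher than in Control in LV-MEIS1 (0.34 ± 0.05, eBayes adjusted p = 0.00015) and in HOXB13ko (0.18 ± 0.05, eBayes adjusted p = 0.021). Of 8 listed adaptors of the APP tail, APBA3 was lower in LV-MEIS1 (-0.80 ± 0.08, eBayes adjusted p = 3.5e-06) and MAPK8IP1 lower in HOXB13ko (-0.62 ± 0.09, eBayes adjusted p = 0.00014) than in Control. Of 10 listed sorting genes, GGA1, which carries BACE1 between endosomes and the Golgi, was lower (-0.76 ± 0.08, eBayes adjusted p = 1.8e-06) and SORT1 higher (0.60 ± 0.06, eBayes adjusted p = 3e-06) in LV-MEIS1 than in Control. Between HOXB13ko-LV-MEIS1 and LV-MEIS1, GGA1 was higher (0.72 ± 0.08, eBayes adjusted p = 2e-06) and SORT1 lower (-0.42 ± 0.06, eBayes adjusted p = 5.6e-05) in HOXB13ko-LV-MEIS1. In HOXB13ko against Control 0 of the 10 sorting genes differed from no change (2 at an unadjusted eBayes p under 0.05), beside 32.9% of all genes after adjustment. They ran from -0.15 to 0.13.

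**Figure D5:**
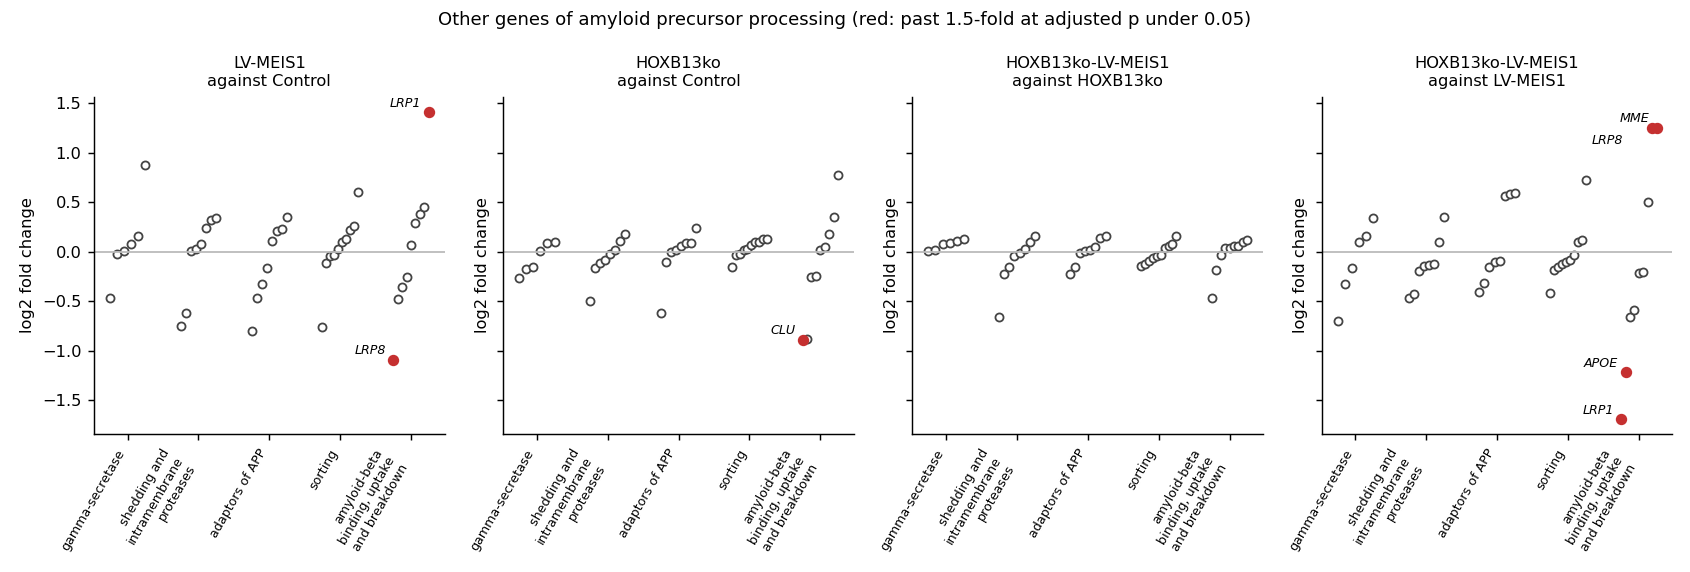
Log2 fold change of the 41 listed genes of the 5 pathway lists in the 4 comparisons, with genes that passed 1.5-fold in red and named. LRP1 (1.41 and -1.69) and LRP8 (-1.09 and 1.25) lie on opposite sides in the first panel and in the last.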

How the data were processed

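Single-end RNA-seq reads of 50 bp from 12 libraries were trimmed (Trimmomatic 0.38) and assigned by the authors to Ensembl GRCh38.p12 transcripts with kallisto 0.43.1. Gene counts were estimated with tximport, genes with few counts were removed and libraries were normalized in edgeR 3.22.2. The deposited values are CPM, made by the authors from these estimated counts, by gene symbol without identifiers. Each table had 13993 rows, of which 42 exact repeats were left out. Of the values under 1 CPM, 39.7 to 53.6% lay within 0.05 of a whole number of reads, so reads were not recovered and no count test was run. Groups came from the labels. limma 3.58.1 (R 4.3.3) was applied to log2(CPM + 0.5) with a trended prior, no block and 1 mean per group. The study used edgeR's treat test on counts, which were not used here. An exact permutation test of 3 against 3 libraries cannot go below p = 0.10. Figures used Python 3.11.15 and matplotlib 3.10.9. Each result was also computed with a pseudocount of 0.1 or 1, without genes averaging under 1 CPM, with other scalings, the replicate block, an adjusted p under 0.01, fits of only the 6 libraries compared, and leaving out each library. The members and lists were chosen with earlier results of these data known. The levels of the set were given in every group, and similar genes were named by Pearson r. Pathway genes were named if they passed 1.5-fold, and others were taken from their lists without naming every gene that differed. Replicate numbers were checked for pairing: of 18 pairs of same-numbered libraries, 2 had deviations correlated above 0.1 (range -0.209 to 0.146), so they were not taken as pairs. The result of 1 further cell type marker is not reported here.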

Additional observations from a re-analysis of the deposited data

Results flagged for a closer look

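The effect of lentiviral MEIS1 differed between the cells without and with the HOXB13ko label for APP, APLP2 and SORL1, by a test of the difference itself (limma eBayes against no change). The log2 difference was -0.44 for APP (adjusted p = 0.00013), 0.61 for APLP2 (adjusted p = 9.2e-06) and 0.61 for SORL1 (adjusted p = 0.011). None of these passed the test against 1.5-fold (limma treat adjusted p = 1), and 34.2% of all genes differed from no change in the same test.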

How the results depend on the processing

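Of 872 fold changes of the 8 genes under other settings, 838 kept their direction and their result past 1.5-fold, 0 lost a call past 1.5-fold and 8 reversed. The other 26 gained a call, 18 of them with the same fold change because the test was that against no change, and 8 of them, for APLP1 and APLP2, under other settings. Many of the 872 could not change. The other test and the stricter threshold reuse the same fold change, as does leaving out a library of a group not compared. Most results also had no call past 1.5-fold to lose. Calls against no change that other settings lost or gained are not in this count. In LV-MEIS1 against Control BACE1 lost such a call in 7 of 20 alternatives. In HOXB13ko-LV-MEIS1 against LV-MEIS1 BACE1 lost it in 8 of 20 and BACE2 in 3 of 20. SORL1 gained such a call in 5 of 20 in LV-MEIS1 against Control, and BACE2 in 1 of 20 in HOXB13ko against Control. ITM2B and BACE1 each gained it in 2 of 19 for the difference of the MEIS1 effects. The reversals were of differences near 0. For BACE2 in LV-MEIS1 against Control they were -0.0033 after quantile normalization and -0.07 without Control replicate 3, where the range without single libraries was -0.07 to 0.16. For BACE2 in the difference of the MEIS1 effects it was 0.05 without Control replicate 2, with a range of -0.19 to 0.05. For APLP1 in HOXB13ko-LV-MEIS1 against HOXB13ko they were -0.01 and -0.02 without replicate 3 of HOXB13ko and of HOXB13ko-LV-MEIS1. For SORL1 in HOXB13ko-LV-MEIS1 against LV-MEIS1 they were -0.02 with an equal CPM sum, -0.09 without LV-MEIS1 replicate 1 (range -0.09 to 0.13) and -0.01 without HOXB13ko-LV-MEIS1 replicate 1.

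Past 1.5-fold, 557 genes were called in LV-MEIS1 against Control, 197 in HOXB13ko against Control, 1 in HOXB13ko-LV-MEIS1 against HOXB13ko, 936 in HOXB13ko-LV-MEIS1 against LV-MEIS1 and 409 for the difference of the MEIS1 effects. The test against no change called 6207, 4590, 7, 6993 and 4771 of all genes, and 6, 5, 0, 7 and 5 of the 8. At an adjusted p under 0.01 the difference of the MEIS1 effects gave 272 genes. HOXB13ko-LV-MEIS1 against HOXB13ko gave 2 genes with a pseudocount of 0.1 and with only its 6 libraries. With an equal CPM sum or quantile normalization, LV-MEIS1 against Control gave 2 of the 8, with APLP2 added at 0.75 and 0.73, and the difference of the MEIS1 effects gave 1, APLP1. Leaving out each library in turn gave 1 to 2 genes in HOXB13ko-LV-MEIS1 against HOXB13ko, and 0 to 1 of the 8 in the difference of the MEIS1 effects, the gene being APLP1, which was picked on this difference, without Control replicate 2, LV-MEIS1 replicate 2, HOXB13ko replicate 3 or HOXB13ko-LV-MEIS1 replicate 3. Against no change, the 8 genes gave 5 to 7 calls in HOXB13ko-LV-MEIS1 against LV-MEIS1 over all alternatives. With the replicate block the counts of genes were 522, 166, 2, 895 and 356, and those of the 8 stayed at 1, 1, 0, 3 and 0, but CLU lost its call (adjusted p = 0.0651), as did BACE1 against no change. The scalings moved the median of all genes by at most 0.039 on the log2 scale. The cause of these changes was not tested.

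Each genotype is a single line or pool, so line and genotype cannot be told apart. The 3 replicates per group left 95% intervals in HOXB13ko against Control that were narrow for ITM2B (-0.11 to 0.07) and wide for SORL1 (0.38 to 0.88).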
